A study of Mus musculus with 20 samples.

Results

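The genes of heme synthesis were followed in LSK cells (Lin-Sca1+Kit+ stem and progenitor cells) and in MEP (megakaryocyte-erythroid progenitors) sorted from the bone marrow (BM) of C57BL/6 mice. The set was chosen by gene symbol and holds 9 of the 24315 genes listed, namely 8 enzymes, Alas1, Alas2, Alad, Uros, Urod, Cpox, Ppox and Fech, and the carrier Slc25a38. All 9 are listed in both tables and all 9 passed the filter on low values in LSK and in MEP. Each cell type has 10 polyA RNA libraries, 3 from wild type (WT), 3 from Dnmt3a-/-, 2 from Bcor-/- and 2 from Bcor-/-Dnmt3a-/- mice, and LSK and MEP libraries with the same replicate number within a genotype carry the same mouse name. Replicate 1 of Bcor-/- names 2 mice in its label. In the mutant mice the floxed genes, with exons 8 to 10 of Bcor among them, were targeted by Mx1-Cre, a transgene that interferon induces in blood cells and other tissues and that was switched on with pIpC, and WT controls carry untargeted genes. The study describes the loss of Dnmt3a as incomplete in Dnmt3a-/- mice. It describes the Bcor-/-Dnmt3a-/- mice as developing erythroid leukemia and calls those set against WT by RNA-seq leukemic, while the labels give neither age nor disease stage. Values are FPKM, counts of sequenced fragments corrected for the length of the transcript and the depth of the library, and the 2 tables were normalized separately, so that levels of LSK and MEP are set side by side without a test.

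Heme is an iron-bearing ring that is built from glycine and succinyl-CoA. The pathway starts in the mitochondrion, continues in the cytosol and ends in the mitochondrion, where iron is inserted into the finished ring. Its entry step is made by either of a pair of isozymes, the general ALAS1 and the erythroid ALAS2, and red cell precursors need large amounts of heme for hemoglobin. Iron controls the translation of Alas2 RNA and heme represses Alas1, so that RNA levels are not enzyme levels.

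The pathway genes are known targets of erythroid GATA factors, and the stretches of 250 bases upstream of the start sites in RefSeq (GRCm38.p6) were searched on both strands for GATA words (A or T, then GATA, then A or G) and for GCATGCGC, the core of the motif of NRF1, a factor of housekeeping and mitochondrial genes. Of all 32851 windows of this length, 26.5% held a GATA word and 2.26% held GCATGCGC. Of the members, 8 have windows in that table. GATA words were found upstream of Alas2, of Cpox and of 1 of the 2 starts of Uros, and GCATGCGC upstream of 1 of the 2 starts of Alas1. The other 4 members with windows, Alad, Urod, Ppox and Slc25a38, held none of these words. A match is a description of the letters in the window, and binding was not measured. GATA words are common, at 26.5% of all windows, and whether the members hold them more often was not tested. The 4 windows with matches are printed 5′ to 3′ on the strand of the gene, since the 4 genes take part in the main contrasts below, and capitals mark the matches. The Alas2 window is chrX:150547167-150547416 on the plus strand, Cpox is chr16:58669958-58670207 on the plus strand, the Uros window is chr7:133702501-133702750 on the minus strand and the Alas1 window is chr9:106247731-106247980 on the minus strand.
Alas2: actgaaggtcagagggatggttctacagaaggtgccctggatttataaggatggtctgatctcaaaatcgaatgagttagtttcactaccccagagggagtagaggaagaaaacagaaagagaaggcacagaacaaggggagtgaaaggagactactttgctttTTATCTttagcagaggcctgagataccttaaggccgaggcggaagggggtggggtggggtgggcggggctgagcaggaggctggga
Cpox: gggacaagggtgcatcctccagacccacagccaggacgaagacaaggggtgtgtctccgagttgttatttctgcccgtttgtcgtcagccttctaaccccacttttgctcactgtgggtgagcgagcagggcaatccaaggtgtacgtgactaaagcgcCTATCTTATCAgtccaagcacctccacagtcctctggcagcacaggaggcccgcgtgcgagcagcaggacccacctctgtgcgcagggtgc
Uros: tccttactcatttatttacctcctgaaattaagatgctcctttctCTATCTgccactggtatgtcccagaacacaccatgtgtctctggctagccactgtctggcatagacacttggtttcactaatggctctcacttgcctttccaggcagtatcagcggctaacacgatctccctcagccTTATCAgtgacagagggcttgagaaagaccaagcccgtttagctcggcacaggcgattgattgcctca
Alas1: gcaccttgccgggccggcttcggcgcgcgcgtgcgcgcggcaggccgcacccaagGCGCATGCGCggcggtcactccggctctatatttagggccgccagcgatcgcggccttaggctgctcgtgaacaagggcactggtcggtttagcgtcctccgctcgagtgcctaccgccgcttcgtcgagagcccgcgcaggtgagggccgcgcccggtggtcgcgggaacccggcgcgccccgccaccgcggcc
In Alas2 the single match lay 86 to 81 bases before the start. In Cpox 2 matches at 91 to 86 and 86 to 81 bases before the start shared 1 base, and in Uros the 2 matches lay at 205 to 200 and at 68 to 63 bases. In Alas1 the capitals are 2 overlapping matches, 1 on each strand. Values per gene do not tell the starts of a gene apart.

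The libraries were compared before the genes. Replicates of WT, Dnmt3a-/- and Bcor-/- correlated at 0.971 or higher across genes on the log2 scale, and the 2 Bcor-/-Dnmt3a-/- libraries correlated at 0.849 in LSK and at 0.815 in MEP. The RNA of neither targeted gene was lost, and its level did not follow the labels throughout. Bcor in LSK had 29.5 to 32.4 FPKM in WT and 22.4 and 23.2 where Bcor alone was targeted. With both genes targeted it had 24.0 and 37.4, so that replicate 2 lay above every WT library. In MEP both of these genotypes overlapped WT in Bcor. Dnmt3a in LSK had 16.1 to 19.8 FPKM in WT, 10.4 and 10.9 with both genes targeted, and 16.9, 14.03 and 11.3 in Dnmt3a-/-, which overlapped WT. In MEP it had 5.49 to 6.64 FPKM in WT, 5.40, 2.97 and 2.56 in Dnmt3a-/-. With both genes targeted it had 6.85 in replicate 1, above every WT library, and 3.44 in replicate 2. A level summed over a gene does not show whether the targeted exons are in the RNA, and genotypes are given here as labelled. LSK libraries of Bcor-/-Dnmt3a-/- mice departed from LSK markers. Of 10 LSK markers 8 were called lower than in WT, by the rule given below, which called 13.3% of all genes lower. The summed level of the 10 was 183 and 381 FPKM against 1163 to 1371. Ly6a, the gene of Sca1, had 63.5 and 220 FPKM there and 59.8 to 70.7 in WT, whereas Kit fell from 148 to 174 FPKM in WT to 47.7 and 19.4. In sorted bulk samples a different mix of cells and a different amount of RNA per cell cannot be told apart.

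In WT LSK the general pathway was on and the erythroid entry step was nearly off. Alas1 had 29.0, 51.9 and 32.2 FPKM in the 3 libraries, and Alas2 had 0.541, 1.57 and 2.01. By mean FPKM, Urod was the highest member (54.1 ± 7.9, SD, n = 3), followed by Alas1, Ppox, Fech, Slc25a38, Alad, Cpox, Uros and Alas2. Urod did not stand clear of Alas1, whose highest library lay above 2 of the 3 Urod values. Alad (11.6 to 13.4 FPKM) overlapped Slc25a38 (13.001 to 15.6 FPKM), Cpox (9.50 to 12.9 FPKM) and Uros (7.03 to 11.9 FPKM). Cpox and Uros overlapped as well, while every Alas2 value lay below every value of the other members. In WT MEP the order by mean was Urod, Cpox, Fech, Slc25a38, Alad, Uros, Ppox, Alas1 and Alas2. There Alas1 was at 13.7 to 14.9 FPKM and Alas2 at 4.45, 15.2 and 6.90 FPKM, so that Alas1 and Alas2 overlapped. The ranges of Slc25a38, Alad, Uros and Ppox in WT MEP also overlapped. That of Fech (86.0 to 133 FPKM) overlapped that of Slc25a38 (63.7 to 98.3 FPKM).

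**Figure D1:**
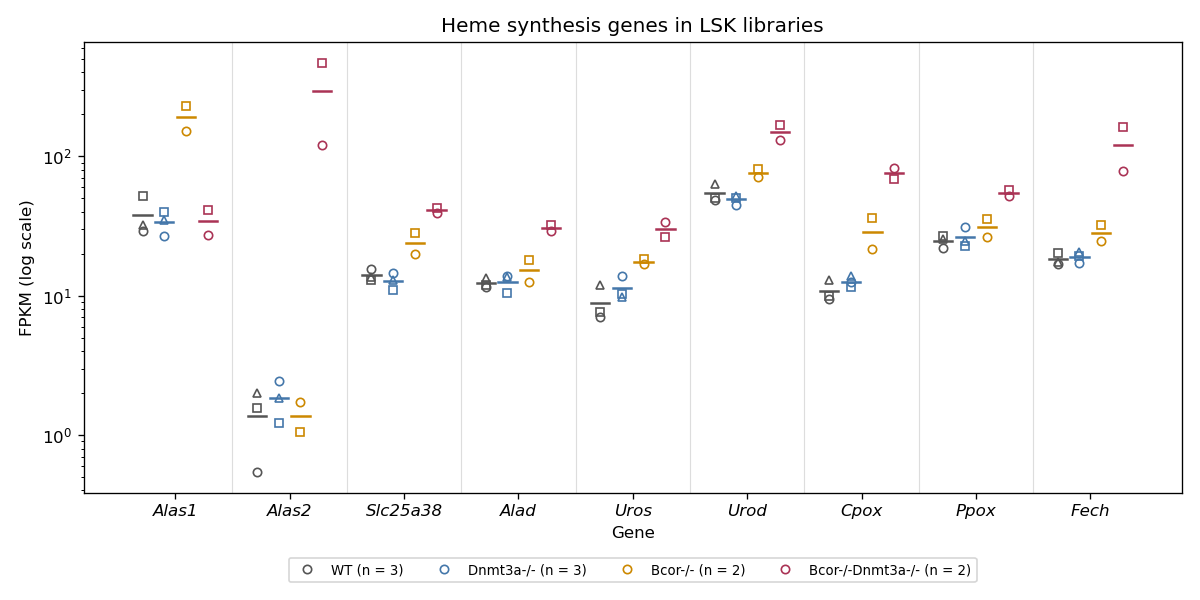
FPKM of the 9 members in each LSK library on a log axis, by genotype, with the symbol giving the replicate (circle 1, square 2, triangle 3) and the short line the mean. The Bcor-/-Dnmt3a-/- libraries lie above all WT libraries for every member but Alas1, and the Bcor-/- libraries stand alone at the top for Alas1.

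The first question was how the pathway differed from WT in LSK labelled as lacking both genes. Of the 9 members 8 rose in Bcor-/-Dnmt3a-/- LSK against WT, and Alas1 did not pass the test. Among all genes tested, 15.0% were called higher in this contrast. A call needed a fold change above 1.5 together with p under 0.05, not adjusted, in limma's moderated test on log2(FPKM + 1), a scale on which the change of low genes is understated. All 8 calls also held at an adjusted p under 0.05, a rule that called 23.7% of all genes in either direction. The median log2 fold change was 1.48 over the members and 0.02 over all genes tested.

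At the entry step the isozymes parted. Alas2 had 120 and 469 FPKM in the Bcor-/-Dnmt3a-/- LSK libraries, 87.6 and 341 times the WT mean. Its log2 fold change was 6.71 ± 0.51 (SE; limma, adjusted p = 6.18e-05). Alas1 had 27.2 and 41.1 FPKM, the first just below the lowest WT library and the second inside the WT range. Its log2 fold change was -0.12 ± 0.30 (limma, adjusted p = 0.792). Slc25a38, which carries glycine into the mitochondrion for this step, had 39.2 and 42.6 FPKM against 15.6, 13.001 and 13.6 in WT. It rose by 1.48 ± 0.17 on the log2 scale (limma, adjusted p = 0.000321).

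The enzymes of the cytosol rose as well. Alad, which joins ALA molecules to porphobilinogen, had 28.9 and 32.2 FPKM against 11.6, 12.0 and 13.4 in WT, a log2 fold change of 1.24 ± 0.18 (limma, adjusted p = 0.00098). Uros, which closes the ring, had 34.0 and 26.2 FPKM against 7.03, 7.67 and 11.9 in WT, a log2 fold change of 1.68 ± 0.23 (limma, adjusted p = 0.000818). Urod, which removes carboxyl groups from the ring, had 130 and 169 FPKM against 48.9, 50.2 and 63.3 in WT, a log2 fold change of 1.45 ± 0.16 (limma, adjusted p = 0.000253). In all 3 genes the 2 groups did not overlap, which held for 49.6% of all genes tested in this contrast.

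Of the mitochondrial end steps, Cpox and Fech rose most. Cpox, the oxidase that follows Urod, had 82.6 and 68.4 FPKM against 9.50, 10.02 and 12.9 in WT, 7.63 and 6.32 times the WT mean (log2 fold change 2.70 ± 0.22; limma, adjusted p = 6.71e-05). Fech, the ferrochelatase that inserts iron, had 78.0 and 163 FPKM against 17.0, 20.3 and 17.5 in WT, 4.27 and 8.91 times the WT mean (log2 fold change 2.57 ± 0.26; limma, adjusted p = 0.000209). Ppox, which oxidizes the ring before Fech, had 52.3 and 57.2 FPKM against 21.99, 26.6 and 25.5 in WT, a log2 fold change of 1.12 ± 0.17 (limma, adjusted p = 0.00138). The 2 libraries of the group differed most in Alas2 and Fech, both higher in replicate 2, and replicate 1 was the higher one for Cpox and Uros. The count of 8 was the same when each WT or Bcor-/-Dnmt3a-/- library was left out in turn. For 2 libraries set against 3 the smallest p of an exact permutation test is 0.1, and each of the 8 genes was at that value.

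Markers of red cells moved with these genes, in a contrast that called 15.0% of all genes higher and 13.3% lower. All 10 tested late erythroid markers were called higher in Bcor-/-Dnmt3a-/- LSK, and the sum over the 11 listed ones was 6209 and 23439 FPKM against 42.7 to 136 in WT. All 5 B cell markers were also called higher, with sums of 1544 and 1119 FPKM against 34.7 to 65.3, and 2 of them, Ebf1 and Pax5, passed the filter on low values only through these libraries. T and NK cell markers summed to 93.1 and 302 FPKM against 211 to 231 in WT. Of these 5 genes, Cd3d, Cd3e, Cd3g and Gzma passed the filter only through the Bcor-/-Dnmt3a-/- libraries, so that their calls were fixed by it, and Nkg7 was called lower. Of 9 MEP markers 7 were called higher and 2 lower (1026 and 801 FPKM against 351 to 419), and of 7 tested megakaryocyte markers 4 were called lower (14.1 and 53.3 FPKM against 118 to 155). Macrophage markers summed to 1514 FPKM in replicate 1 and 122 in replicate 2, against 62.8 to 334 in WT, and 1 of 7 was called higher. Neutrophil and early granulocyte markers summed to 8611 and 8944 FPKM against 3747 to 13911, and 1 of 10 was called higher. In these 2 lists the counts were no more than the share of all genes. None of the erythroid, B cell, T and NK cell or macrophage markers was listed at 0 in the Bcor-/-Dnmt3a-/- libraries, and Cd3e was listed at 0 in 1 WT library. The part of these markers in the result was not tested.

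The next question was how much of this was seen in mice labelled Bcor-/- alone. In Bcor-/- LSK 5 of the 9 members rose, against 7.20% of all genes tested that were called higher, and the gene that rose most was Alas1, not Alas2. Alas1 had 151 and 231 FPKM, 4.01 and 6.13 times the WT mean and above every other LSK library of the study. Its log2 fold change was 2.33 ± 0.30 (limma, adjusted p = 0.0111). Alas2 stayed at 1.72 and 1.04 FPKM, inside the WT range, with a log2 fold change of 0.04 ± 0.51 (limma, adjusted p = 0.974). By mean FPKM, Alas1 was the highest member in Bcor-/- LSK (191 ± 57, SD, n = 2), and both of its values lay above both Urod values (71.5 and 81.2 FPKM).

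The other 4 genes that rose were spread over the pathway. Cpox had 21.5 and 35.8 FPKM, both above the WT maximum of 12.9 (log2 fold change 1.30 ± 0.22; limma, adjusted p = 0.0175). Uros had 16.9 and 18.2 FPKM, above the WT maximum of 11.9 (log2 fold change 0.94 ± 0.23; limma, adjusted p = 0.0435). Slc25a38 had 20.05 and 28.0 FPKM against 13.001 to 15.6 in WT (log2 fold change 0.72 ± 0.17; limma, adjusted p = 0.0393). Fech had 24.8 and 32.0 FPKM against 17.0 to 20.3 in WT, a log2 fold change of 0.60 ± 0.26 that did not hold after adjustment (limma, adjusted p = 0.196). The other 4 calls held, under a rule that called 5.77% of all genes.

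Urod, Ppox and Alad were not called in Bcor-/- LSK. Both Urod libraries lay above the WT range, at a fold change under the threshold (log2 fold change 0.50 ± 0.16; limma, adjusted p = 0.0907). Ppox had 26.6 and 35.4 FPKM and a log2 fold change of 0.31 ± 0.17, and Alad had 12.6 and 17.9 FPKM and a log2 fold change of 0.27 ± 0.18. The median log2 fold change over the members was 0.60, against -0.01 over all genes. With either replicate left out, the lone Bcor-/- library was assumed to vary like those of the other genotypes. Replicate 2 was the higher library in every member but Alas2. Without it, 3 members were called, Alas1, Uros and Cpox, with 4.75% of all genes called higher. Without replicate 1, the library named for 2 mice, 5 were called, with 7.97% of all genes called higher.

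Granulocyte, erythroid and MEP markers moved with this group. Of 10 neutrophil and early granulocyte markers 4 were called higher in Bcor-/- LSK, and their sum was 18055 and 25622 FPKM against 3747 to 13911 in WT. Of 10 tested late erythroid markers 6 were called higher, with sums of 185 and 238 FPKM against 42.7 to 136 in WT. Of 9 MEP markers 4 were called higher, with sums of 683 and 1041 FPKM against 351 to 419. Of 10 LSK markers 4 were called lower, with sums of 884 and 600 FPKM. Of all genes, 7.20% were called higher and 6.03% lower in this contrast. No marker of these 4 lists was listed at 0, and their part in the result was not tested.

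Set directly against Bcor-/- LSK, the Bcor-/-Dnmt3a-/- libraries differed in all 9 members. Alas1 was lower, by 2.45 ± 0.33 on the log2 scale (limma, adjusted p = 0.00103), with both Bcor-/-Dnmt3a-/- values (27.2 and 41.1 FPKM) far under both Bcor-/- values. The other 8 were higher, from Alas2 (6.66 ± 0.56; limma, adjusted p = 0.000169) and Fech (1.96 ± 0.29; limma, adjusted p = 0.00159) to Uros (0.74 ± 0.25; limma, adjusted p = 0.0539). Of all genes, 15.8% were called higher and 14.8% lower in this contrast. Uros was the one call that did not hold at an adjusted p under 0.05, a rule that called 25.2% of all genes. The groups did not overlap in any of the 9 members, nor in 59.3% of all genes tested. With a variance per genotype 7 of the 9 members were called (22.5% of all genes in either direction), and with a fold change above 2 as threshold 4 were (16.3%). For 2 libraries set against 2 the smallest exact permutation p is 0.333. In this contrast too, markers moved with the members. All 10 late erythroid and all 5 B cell markers were called higher. Of the B cell markers, Ebf1 and Pax5 passed the filter on low values only through the Bcor-/-Dnmt3a-/- libraries. Of 10 LSK markers 8 were called lower and 1 higher, and of 10 neutrophil and early granulocyte markers 4 lower and 2 higher. Of 7 megakaryocyte markers 4 were called lower, and of 9 MEP markers 2 lower and 3 higher. Of 7 macrophage markers 1 was called higher, no more than the share of all genes. Of 5 T and NK cell markers the 4 that passed the filter only through the Bcor-/-Dnmt3a-/- libraries were called higher, and Nkg7 lower. Their part in the result was not tested.

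The Dnmt3a-/- libraries, in which Dnmt3a RNA was not lost, gave no call among the members. In Dnmt3a-/- LSK 0 of the 9 members were called by limma, none with an unadjusted p under 0.05, and 0.443% of all genes were called in either direction. The smallest unadjusted p was that of Uros (13.9, 10.2 and 9.80 FPKM; log2 fold change 0.34; limma, adjusted p = 1). In Dnmt3a-/- MEP 0 of 9 were called, again none at an unadjusted p under 0.05, and 0.412% of all genes were called. These misses do not show that the levels were equal.

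**Figure D2:**
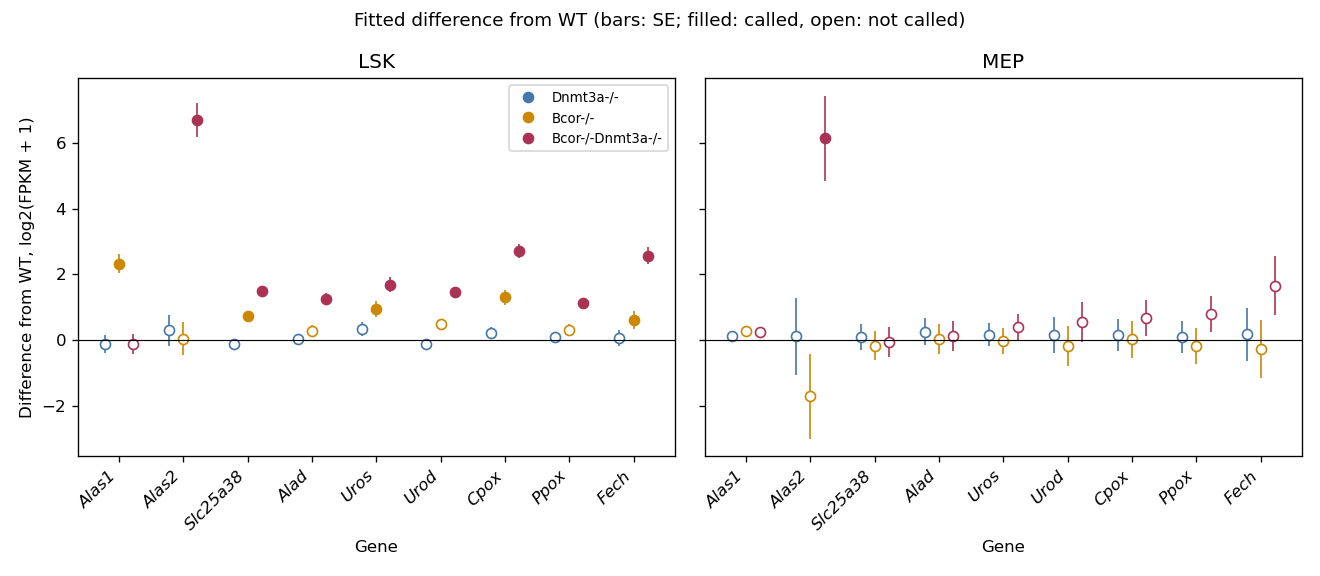
Fitted difference of each mutant genotype from WT for the 9 members in log2(FPKM + 1), in LSK (left) and MEP (right), with bars of 1 SE and filled points for called genes. In LSK the Bcor-/-Dnmt3a-/- points are called for 8 members and the Bcor-/- points for 5, and in MEP Alas2 in Bcor-/-Dnmt3a-/- is the single filled point.

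In MEP labelled Bcor-/-Dnmt3a-/- the test called 1 member against WT, Alas2. It had 88.3 and 4392 FPKM against 4.45, 15.2 and 6.90 in WT, 9.99 and 497 times the WT mean. The log2 fold change was 6.14 ± 1.30 (limma, adjusted p = 0.00872), the highest of the 10933 genes tested. Of all genes, 18.5% were called higher, and 25.2% in either direction at an adjusted p under 0.05, so that 1 of 9 members was no more than the background. Alas1 had 17.5 and 17.1 FPKM against 14.9, 14.6 and 13.7, both above the WT range, with a log2 fold change of 0.25 ± 0.12 (limma, adjusted p = 0.136).

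For the other 7 members the 2 Bcor-/-Dnmt3a-/- MEP libraries lay on opposite sides of WT, replicate 1 below every WT library and replicate 2 above every one. Of all genes tested in MEP, 19.1% had the pair on opposite sides of every WT library, in either order. In LSK of the same mice this was so for 0 of the 9 members and for 17.9% of all genes. Fech had 82.3 FPKM in replicate 1 and 1290 in replicate 2, against 86.0 to 133 in WT. Urod had 139 and 861 FPKM against 204 to 298, and Cpox had 107 and 563 against 139 to 179. Ppox had 42.1 and 223 FPKM against 44.5 to 70.0 in WT. Alad had 32.3 and 129 FPKM against 52.0 to 75.9, Uros had 43.8 and 126 against 46.6 to 78.9, and Slc25a38 had 37.2 and 133 against 63.7 to 98.3. The gap above WT was widest for Fech, 12.3 times the WT mean.

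**Figure D3:**
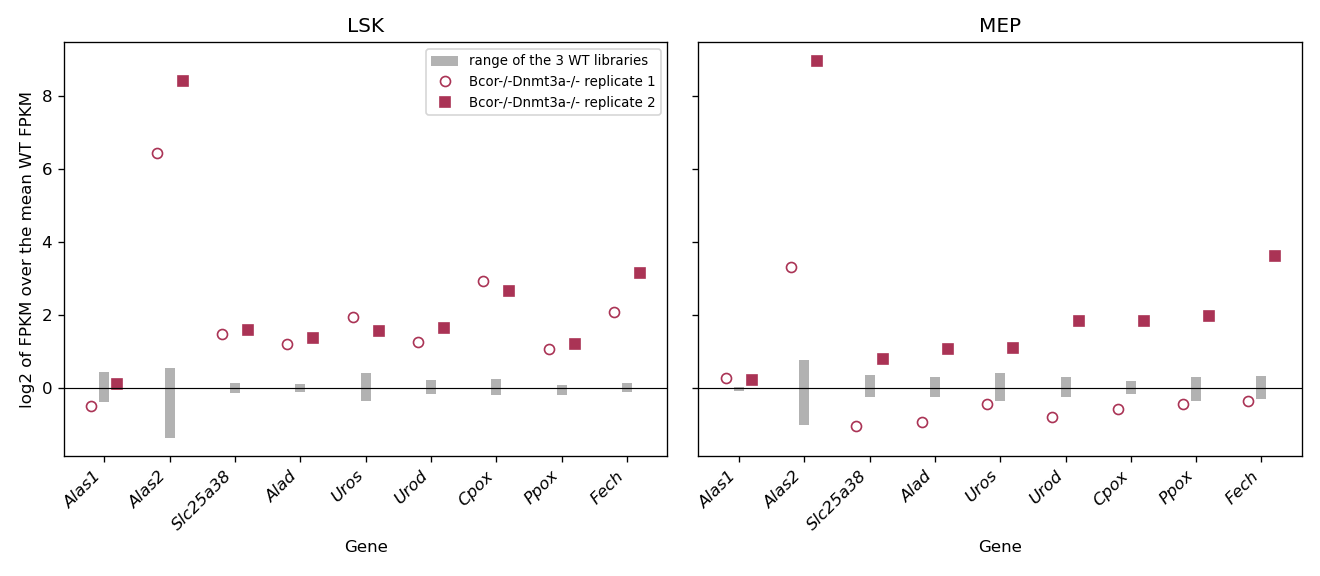
Log2 of the FPKM of each Bcor-/-Dnmt3a-/- library over the mean WT FPKM, in LSK (left) and MEP (right), with grey bars for the range of the 3 WT libraries. In LSK both libraries lie above WT for 8 members, and in MEP replicate 1 lies below and replicate 2 above WT for the 7 members other than Alas1 and Alas2.

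The mean of such a pair describes neither library. With replicate 1 left out, 8 of 9 members were called higher in MEP, with 23.4% of all genes, from Slc25a38 (log2 fold change 0.84; limma, adjusted p = 0.026) to Alas2 (8.95; limma, adjusted p = 6.34e-06). With replicate 2 left out, Alas2 was higher (3.33; limma, adjusted p = 0.00124) and 3 members were called lower, Slc25a38 (-0.97; limma, adjusted p = 0.0161), Alad (-0.87; limma, adjusted p = 0.0108) and Urod (-0.76; limma, adjusted p = 0.027). Without replicate 2, 21.8% of all genes were called higher and 14.0% lower. In these fits the lone library was assumed to vary like those of the other genotypes. The counts of markers that follow come from the fit of all libraries. That fit called 18.5% of all genes higher and 12.4% lower. Late erythroid markers were at 4214 FPKM in sum in replicate 1 and at 92116 in replicate 2, where Hbb-b1 was listed at 0, against 946 to 1736 in WT, and 4 of 10 were called higher. MEP markers summed to 2011 FPKM in replicate 1 and 4679 in replicate 2, against 3664 to 4817 in WT, and 3 of 9 were called lower. Megakaryocyte markers were at 15.7 and 43.5 FPKM against 77.6 to 297 in WT (3 of 7 called lower), and T and NK cell markers at 83.5 and 190 against 33.0 to 67.4 (3 of 4 called higher, 2 of which passed the filter only through these libraries). Macrophage markers were at 792 and 36.0 FPKM against 6.51 to 11.1 in WT (6 of 7 called higher, 4 of the 7 past the filter only through these libraries), and B cell markers at 1073 and 121 against 13.1 to 60.3 (5 of 5). The neutrophil list had 7061 and 16098 FPKM against 334 to 806 (6 of 10). The part of these cells in the result was not tested.

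**Figure D4:**
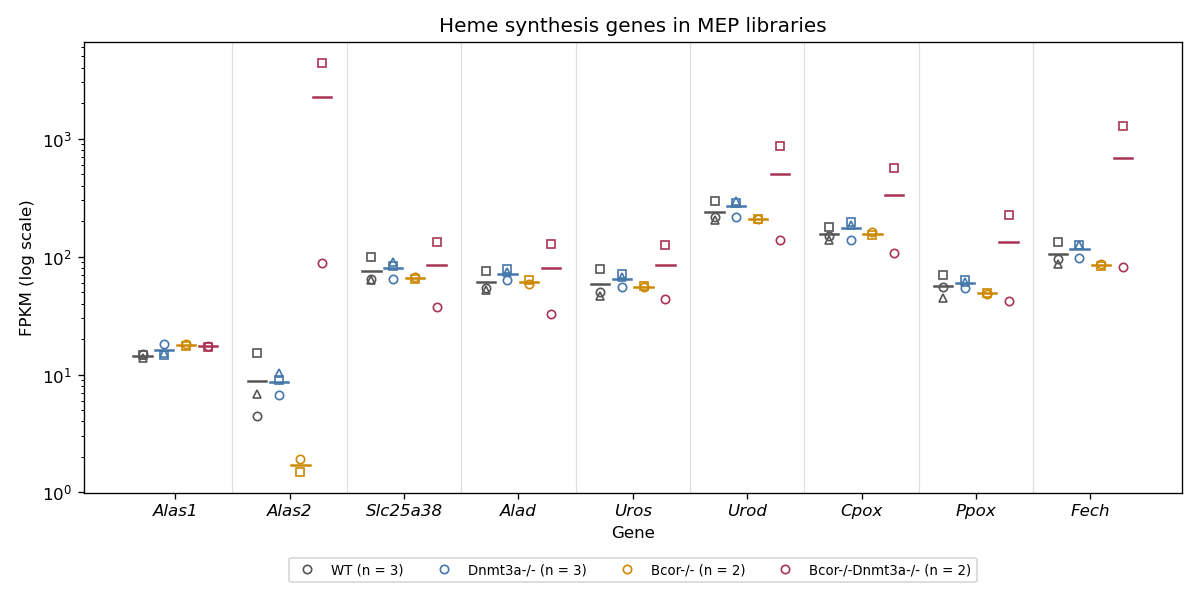
FPKM of the 9 members in each MEP library on a log axis, by genotype, with the symbol giving the replicate (circle 1, square 2, triangle 3) and the short line the mean. Alas2 in Bcor-/-Dnmt3a-/- reaches 4392 FPKM in replicate 2, and both Bcor-/- libraries lie at the bottom for Alas2, at 1.91 and 1.49 FPKM.

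In Bcor-/- MEP the test called no member. None of the 9 members was called by limma, of which Alas1 had an unadjusted p under 0.05, and 2.76% of all genes were called in either direction. Alas1 had 18.2 and 17.3 FPKM, above the WT maximum of 14.9, and a log2 fold change of 0.29 ± 0.12, under the threshold for fold change (limma, adjusted p = 0.857). Alas2 had 1.91 and 1.49 FPKM, below the WT minimum of 4.45, and a log2 fold change of -1.72 ± 1.30 (limma, adjusted p = 1). Its SE comes from a spread shared with the Bcor-/-Dnmt3a-/- libraries. In a fit of Bcor-/- and WT alone Alas2 was called lower (limma, adjusted p = 0.264), with 2.12% of all genes called lower. With 1 variance per genotype Alas2 was likewise called lower (limma, adjusted p = 0.0824), with 2.25% of all genes. Against Bcor-/- MEP, the Bcor-/-Dnmt3a-/- libraries were called higher for Alas2 alone among the 9 (7.86 ± 1.43; limma, adjusted p = 0.00647). In this contrast 16.5% of all genes were called higher and 11.3% lower, and markers moved too. Of 10 late erythroid markers 4 were called higher, as were 6 of 10 neutrophil and early granulocyte markers. Of 7 macrophage markers 6 were called higher, with all 5 B cell and 3 of 4 T and NK cell markers. Of these, 4 macrophage and 2 T and NK cell markers passed the filter on low values only through the Bcor-/-Dnmt3a-/- libraries. Of 9 MEP markers 2 were called lower and 1 higher, and of 8 LSK markers 3 lower and 1 higher. Among the 8 LSK markers Ly6a passed the filter only through the Bcor-/-Dnmt3a-/- libraries. The filter favours higher calls of such genes. Of 7 megakaryocyte markers 4 were called lower. Their part in the result was not tested. Without Bcor-/-Dnmt3a-/- replicate 1, 8 members were called higher, with 22.6% of all genes. Without replicate 2, Alas2 was called higher and Alad and Slc25a38 lower, with 21.2% of all genes higher and 13.5% lower.

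The balance of the entry isozymes differed between genotypes. Alas2 made up 1.83, 2.94 and 5.87% of the summed FPKM of Alas1 and Alas2 in WT LSK, and 2.995 to 8.41% in Dnmt3a-/- LSK. In Bcor-/- LSK the share was 1.12 and 0.449%, below every WT library. In Bcor-/-Dnmt3a-/- LSK it was 81.6 and 91.9%. In MEP the share was 23.0 to 50.9% in WT, 27.2 to 40.3% in Dnmt3a-/-. It was 9.48 and 7.90% in the Bcor-/- libraries, and 83.5 and 99.6% in the Bcor-/-Dnmt3a-/- ones. In both cell types the Bcor-/- libraries were thus lowest and the Bcor-/-Dnmt3a-/- libraries highest, with no overlap with WT, while Dnmt3a-/- and WT overlapped.

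**Figure D5:**
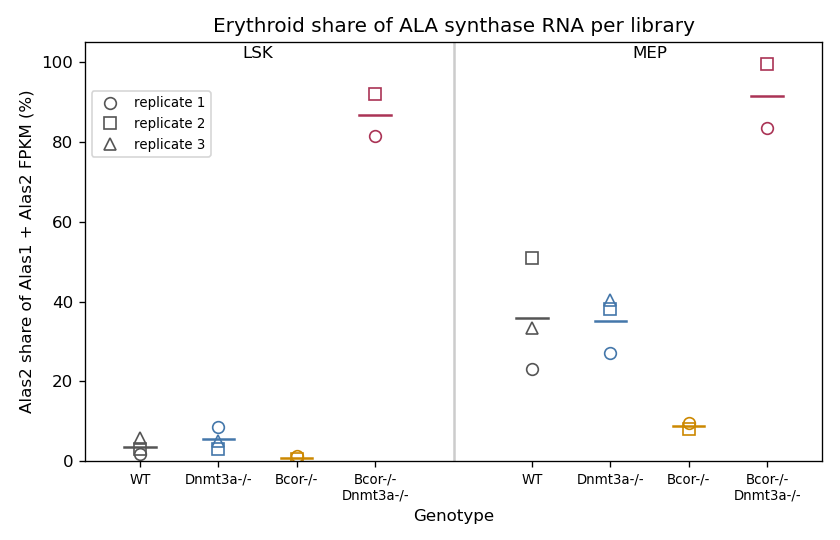
Share of Alas2 in the summed FPKM of Alas1 and Alas2, in percent, in each LSK and MEP library, with the symbol giving the replicate and the line the mean. The Bcor-/-Dnmt3a-/- libraries lie at 81.6% or higher in both cell types and the Bcor-/- libraries at 9.48% or lower.

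The effect of a genotype in LSK was compared with its effect in MEP through the LSK minus MEP difference of each mouse. The difference of Bcor-/-Dnmt3a-/- from WT was larger in LSK for Slc25a38 (by 1.55 ± 0.49 on the log2 scale), Cpox (by 2.04 ± 0.76), Uros (by 1.30 ± 0.56) and Alad (by 1.13 ± 0.49), all in limma at an unadjusted p under 0.05. That made 4 of 9 members called, against 29.4% of all genes in either direction, and 0 of the 9 held after adjustment, where 7.88% of all genes were called with the higher value in LSK and 12.1% with the higher value in MEP, the lowest adjusted p being 0.0514. Without Bcor-/-Dnmt3a-/- replicate 1 none of these 4 was called, and Alas2 and Ppox were called with the larger effect in MEP (LSK minus MEP -1.27 and -0.80). Without replicate 2, 8 members were called with the larger effect in LSK. In either of these fits 38.1% of all genes were called. Without WT replicate 1 or WT replicate 2 the count was 1, with 25.7% and 24.4% of all genes called. The difference of Bcor-/- from WT was larger in LSK for Alas1, by 2.04 ± 0.38 (limma, adjusted p = 0.0595), the one member of the 9 called where 11.8% of all genes were. With only the compared genotypes in the fit, or with 1 variance per genotype, 7 members were called, with 15.0% and 16.2% of all genes.

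Of 8 precursor supply genes, 1 rose in Bcor-/-Dnmt3a-/- LSK and 2 fell, counts near the 15.0% of all genes that were called higher and the 13.3% called lower. Slc6a9, a glycine transporter of the cell membrane, went from 0.739, 1.27 and 0.936 FPKM in WT to 17.4 and 34.2 (log2 fold change 3.69 ± 0.30; limma, adjusted p = 7.21e-05). Suclg2, a subunit of the enzyme that interconverts succinyl-CoA and succinate, fell by 0.90 on the log2 scale, and Shmt1, which makes glycine from serine, fell by 0.88 at an unadjusted p only. In MEP Slc6a9 was again called higher (10.7 and 189 FPKM against 1.32 to 3.37) and Suclg1 and Suclg2 lower, Suclg2 at 23.0 and 19.4 FPKM against 36.6 to 37.3, where 12.4% of all genes were called lower. None of the 8 was called in Bcor-/- LSK.

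Of 12 genes for mitochondrial iron import and iron-sulfur clusters, 4 rose in Bcor-/-Dnmt3a-/- LSK and 0 fell, against 15.0% of all genes called higher and 13.3% lower. Slc25a37, mitoferrin 1, which brings iron into the mitochondrion for Fech, had 108 and 197 FPKM against 24.6 to 32.8 in WT (log2 fold change 2.28 ± 0.23; limma, adjusted p = 0.000203). Glrx5, Iba57 and Isca2, which act in iron-sulfur cluster assembly, rose by 1.16, 0.74 and 0.71 on the log2 scale. Glrx5 and Isca2 also rose in Bcor-/- LSK, by 0.74 and 0.76, where 7.20% of all genes were called higher. In Bcor-/-Dnmt3a-/- MEP Slc25a37 was higher (75.3 and 1381 FPKM against 20.1 to 24.3), while Nfs1, Lyrm4 and Hspa9 of the cluster machinery were lower, against 18.5% of all genes called higher and 12.4% lower there. Hspa9 had 232 and 213 FPKM there against 323 to 367 in WT, with both libraries below the WT range.

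Of 10 porphyrin and heme transport genes tested, 6 rose, 1 fell and 3 were not called in Bcor-/-Dnmt3a-/- LSK, against 15.0% of all genes called higher. In Bcor-/- LSK 6 rose, against 7.20% of all genes, and 4 of the 6 held after adjustment. The mitochondrial transporter Abcb10 had 49.9 and 50.3 FPKM in Bcor-/-Dnmt3a-/- and 20.8 and 33.0 in Bcor-/-, against 8.68, 10.6 and 12.5 in WT. Abcb6 had 25.8 and 18.3 FPKM, then 9.68 and 12.4, against 4.08 to 5.70. Tmem14c, which helps porphyrin enter the mitochondrion, had 238 and 169 FPKM, then 148 and 189, against 83.4 to 99.4. Tspo2 and Hebp1 were called in both contrasts. Fam210b was called in Bcor-/-Dnmt3a-/- (12.3 and 20.6 FPKM against 4.61 to 5.35) and had 4.09 and 5.62 FPKM in Bcor-/-. Set directly against Bcor-/- it was higher by 1.54 ± 0.24 on the log2 scale (limma, adjusted p = 0.00187). Tspo was called in Bcor-/- (219 and 252 FPKM against 94.6 to 145) and had 120 and 213 FPKM in Bcor-/-Dnmt3a-/-, a difference between these genotypes that did not pass the test (log2 fold change -0.55 ± 0.29; limma, adjusted p = 0.181). Of the 10 genes, 5 were called higher and 0 lower in that direct comparison. There 15.8% of all genes were called higher and 14.8% lower. Pgrmc1, a partner of FECH, fell by 0.64 in Bcor-/-Dnmt3a-/- LSK and was called lower in Bcor-/-Dnmt3a-/- and Bcor-/- MEP, in the latter not after adjustment (limma, adjusted p = 0.145). Flvcr1 and Flvcr2 were not analysed here.

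Genes that use or break down heme were mostly not called. Of 7, 1 rose against WT both in Bcor-/-Dnmt3a-/- and in Bcor-/- LSK, Blvrb, a biliverdin reductase abundant in red cells, with 250 and 184 FPKM in Bcor-/-Dnmt3a-/- and 71.7 and 111.97 in Bcor-/- against 18.4 to 31.9 in WT. Of all genes, 15.0% and 7.20% were called higher in these contrasts. Hmox1, the inducible heme oxygenase that degrades heme, was at 151 and 18.0 FPKM in Bcor-/-Dnmt3a-/- LSK, across the WT range of 15.7 to 96.1. In Bcor-/-Dnmt3a-/- MEP it was called higher (78.3 and 9.85 FPKM against 1.32 to 1.62; log2 fold change 3.59 ± 0.70; limma, adjusted p = 0.00612), with replicate 1 the higher library, as for the macrophage markers. Cox10 (11.2 and 9.31 FPKM against 14.0 to 20.7) and Cox15 (14.1 and 11.4 FPKM against 19.7 to 22.3), which make heme a, were called lower there. Of all genes, 18.5% were called higher and 12.4% lower in this contrast.

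Of 9 regulators, 3 rose and 1 fell in Bcor-/-Dnmt3a-/- LSK, against 15.0% of all genes called higher and 13.3% lower. Gata1, the erythroid GATA factor, had 44.1 and 43.5 FPKM in Bcor-/-Dnmt3a-/- and 18.0 and 34.3 in Bcor-/-, against 7.83 to 12.9 in WT. Klf1, a red cell factor, had 52.0 and 35.3 FPKM and 16.1 and 35.4 FPKM, against 1.96 to 6.05. Gata2, the GATA factor of earlier progenitors, had 3.74 and 10.1 FPKM and 33.5 and 26.8 FPKM, against 54.1 to 74.5. All 3 were called in both LSK contrasts, and Gata2 in Bcor-/- did not hold after adjustment (limma, adjusted p = 0.089). Eif2ak1, the kinase that slows translation when heme is short, rose in Bcor-/-Dnmt3a-/- (59.3 and 79.4 FPKM against 29.1 to 30.7; log2 fold change 1.17 ± 0.14; limma, adjusted p = 0.000386). In Bcor-/-Dnmt3a-/- MEP Bach1, a repressor that heme inactivates, had 12.4 and 31.4 FPKM against 8.33 to 11.6 in WT and was called higher. Eif2ak1 was called higher there too (57.4 and 411 FPKM against 50.5 to 62.6; limma, adjusted p = 0.108), and Aco1, whose protein binds iron-responsive elements, lower (16.7 and 17.6 FPKM against 26.7 to 34.1). Klf1 and Gata1 were not called in Bcor-/-Dnmt3a-/- or Bcor-/- MEP. The Bcor-/-Dnmt3a-/- libraries lay on opposite sides of every WT library for both, with Gata1 at 71.4 and 239 FPKM against 170 to 225 and Klf1 at 70.9 and 219 against 144 to 192. In Dnmt3a-/- none of the genes of these 5 lists was called in either cell type.

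Over all libraries the members varied together apart from Alas1. Over the 10 LSK libraries the median Pearson r of log2(FPKM + 1) was 0.926 among the 28 pairs of the other 8 members and 0.07 between Alas1 and those 8. Without the Bcor-/-Dnmt3a-/- libraries the medians were 0.693 and 0.769, and Alas2 was then the member apart, with a median of -0.01 to the 7 members other than Alas1 and a lowest r among the 28 pairs of -0.26. Among those 7 the lowest r was 0.488, and between Alas1 and the 7 it was 0.553. In MEP the medians were 0.909 and 0.01, and without those libraries 0.875 and -0.36. These values describe libraries that share genotypes and normalization and carry no test.

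The genes whose pattern was most like that of a member were found by the mean of r over the 10 LSK and the 10 MEP libraries among 10773 genes. For Alas2 they were Slc4a1, the red cell anion exchanger (0.993), the globins Hbb-b2 (0.992) and Hba-a1 (0.983), Slfn14 (0.981) and Hbq1b (0.981). For Alas1 they were Cldn15 (0.921), Hdc, which makes histamine (0.917), Lta4h, which makes leukotriene B4 (0.898), Dtx4 (0.870) and B4galt6 (0.868). In GENCODE vM21, exons of Alas1, Alas2, Cpox and Ppox overlap those of genes on the opposite strand, Ppox the most with 17.5% of its exonic bases (B4galt3) and Alas2 with 12.9% (Apex2), and whether counting used strand is not given in the sources used here.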

How the data were processed

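RNA of sorted LSK and MEP cells was sequenced by the authors, who deposited for each cell type the FPKM of 24315 genes in 10 libraries. The submitters' processing notes name STAR 2.5.1b, SAMtools 1.9, Cufflinks 2.2.1 and mm9, without roles, and how libraries were scaled to each other is not given in the sources used here. FPKM give no read counts, so absolute depth is unknown and no counting error was computed. The steps of the lowest values put relative depth at 0.79 to 1.32 times WT replicate 1 in LSK and 1.1 to 1.6 times in MEP. An FPKM of 0 can be a failed estimate. Labels give the genotype, mouse and replicate of each library, and p-values measure the spread between these libraries.

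Values were analyzed as log2(FPKM + 1) in R 4.3.3 with limma 3.58.1, for the 11952 LSK and 10933 MEP genes that reached 1 FPKM on average. All 4 genotypes of a cell type entered 1 fit with a mean-variance trend. The study's own thresholds were used for calls (p under 0.05, not adjusted, with a fold change above 1.5), and Benjamini-Hochberg adjusted p-values cover all genes tested. Effects in LSK and MEP were compared on the LSK minus MEP difference per mouse over 11709 genes. The procedure was tested on simulated data. Genes named are the members, pathway genes called in Bcor-/-Dnmt3a-/- in either cell type, markers that move with a result and the 5 genes most like Alas1 or Alas2. A further gene of the pathway is not reported here. Tspo, called in Bcor-/- LSK, was named after its values were seen. Members and lists were chosen with earlier results of these data known. Alternatives were a pseudocount of 0.1, no filter or a minimum of 5 FPKM, quantile normalization, median centring, only the compared genotypes, a replicate block, no trend, 1 variance per genotype, the adjusted p, a fold change above 2, the log2 ratio of mean FPKM and leaving out each library. Where 1 of 2 libraries of a genotype was left out, the lone library was assumed to vary like those of the other genotypes. Figures were drawn with matplotlib 3.10.9. Upstream sequences are RefSeq's (GRCm38.p6), a build other than mm9, and proteins were not used here.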

Additional observations from a re-analysis of the deposited data

Results flagged for a closer look

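In 5 tests of a member, the effect of a genotype differed between LSK and MEP at an unadjusted p under 0.05. The difference of Bcor-/-Dnmt3a-/- from WT was larger in LSK by 1.13 for Alad (limma, adjusted p = 0.124), 1.30 for Uros (limma, adjusted p = 0.124), 2.04 for Cpox (limma, adjusted p = 0.0824) and 1.55 for Slc25a38 (limma, adjusted p = 0.0514) on the log2 scale. Without Bcor-/-Dnmt3a-/- replicate 1, whose MEP library lies below WT for these 4 genes, the differences were 0.22, 0.36, 0.71 and 0.70 and none was called, while Alas2 and Ppox were called with the larger effect in MEP (-1.27 and -0.80). Without replicate 2 they were 2.04, 2.23, 3.37 and 2.40 and all 4 were called. The difference of Bcor-/- from WT in Alas1 was larger in LSK by 2.04 (limma, adjusted p = 0.0595), and by 1.70 to 2.38 when each WT or Bcor-/- library was left out in turn.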

How the results depend on the processing

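The count of 8 called members in Bcor-/-Dnmt3a-/- LSK was the same under every alternative run, and the counts of 0 in Dnmt3a-/- LSK and MEP likewise. A fold change above 2 left 2 of 5 members in Bcor-/- LSK and 4 of 9 in the comparison of Bcor-/-Dnmt3a-/- with Bcor-/- LSK. When 1 library was left out at a time, the count in Bcor-/- LSK was 3 to 5, that in Bcor-/-Dnmt3a-/- MEP 1 to 8 against WT and 1 to 8 against Bcor-/-, and that of members whose difference of Bcor-/-Dnmt3a-/- from WT was not alike in LSK and MEP 1 to 8, calls in either direction included. That last count was also 2 with no filter, 1 with only the compared genotypes and 0 with 1 variance per genotype or with the adjusted p. For that of Bcor-/- from WT it was 2 with a pseudocount of 0.1, 7 with only the compared genotypes, 7 with 1 variance per genotype and 0 with the adjusted p, against 1. In Bcor-/- MEP, 1 variance per genotype gave 1 called member, with 4.41% of all genes called in either direction. Only the compared genotypes also gave 1 there, with 4.10%. For Bcor-/-Dnmt3a-/- against Bcor-/- MEP, 1 variance per genotype gave 2, with 17.8% of all genes. The cause of these shifts was not tested.

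Signs turned as follows among the effects against WT that were followed through the alternatives. Single effects in Dnmt3a-/-, and in Bcor-/- MEP those of members other than Alas1 and Alas2, were not followed. With 1 library left out, log2 fold changes ran from -0.41 to 0.17 for Alas1 in Bcor-/-Dnmt3a-/- LSK and from -0.24 to 0.25 for Alas2 in Bcor-/- LSK. In Bcor-/-Dnmt3a-/- MEP they ran from -0.87 to 1.10 for Alad, -0.37 to 1.14 for Uros, -0.76 to 1.86 for Urod, -0.54 to 1.86 for Cpox, -0.40 to 1.98 for Ppox, -0.32 to 3.64 for Fech and -0.97 to 0.84 for Slc25a38. There Alad was at -0.040 after median centring and the log2 ratio of mean FPKM of Slc25a38 was 0.17. Quantile normalization and median centring moved the median of all genes in Bcor-/-Dnmt3a-/- MEP from 0.02 to -0.17 and -0.14, and the share of calls that were higher from 59.8% to 39.1% and 42.2%. Against WT LSK it went from 53% to 45% and 44.2%, against Bcor-/- MEP from 59.4% to 36.2% and 41.2%, against Bcor-/- LSK from 51.6% to 44.1% and 41.4%, and for the LSK minus MEP difference from 37.7% to 50.8% and 48.2%. The replicate number as a block left the count at 8, 5, 0 and 9 in the 4 LSK contrasts and 1, 0, 0 and 1 in MEP. Numbers were not taken as pairs in the main fit, as they are not stated to mark a shared batch. Of 13 same-numbered pairs of libraries of different genotypes in LSK, 0 correlated above 0.1 in their deviations (-0.06 to 0.09). In MEP 8 of 13 did (-0.19 to 0.34, median 0.137), against 3 of 24 differently numbered pairs (median -0.06). In a group of 2 libraries the deviations mirror each other, so that these pairs are not independent. Whether libraries of a number share a batch was not tested. Depth is unknown, which limits the precision of low values such as Alas2 in WT LSK.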
